A study of Mus musculus with 20 samples.

Results

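The 42 genes described here are members of the nuclear receptor superfamily, taken by gene symbol from a table of 54304 genes measured by RNA sequencing in 2 populations of stromal cells of mouse gonadal white fat. Of the 42, 33 were above 0 in at least 5 of the 20 libraries and entered the tests, 8 were listed at 0 in every library, and 1, Pgr, was above 0 in 4 libraries. All values are log2 CPM, the base 2 logarithm of read counts scaled to library size (CPM) as deposited, in which a CPM of 1 or less is listed as 0.

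The libraries formed 4 groups of 5. Fibro-inflammatory progenitors (FIPs), sorted as CD45-, CD31-, PDGFRb+ and LY6C+ cells, came from mice labelled Mural-Zfp423TG and from control mice. Adipogenic precursor cells (APCs), sorted as CD45-, CD31-, PDGFRb+, LY6C- and CD9- cells, came from the same 2 kinds of mice. The line is named for the transcription factor Zfp423 and for mural cells, which wrap small vessels, and what drives its transgene is not given in the labels. All mice were males 8 weeks old, housed at 30 °C and fed a diet with 60% of its energy from fat for 1 month. Each library pooled the RNA of 2 mice and each genotype had 10 mice, so FIP and APC pools of 1 genotype must share mice, and which pools do so is not given.

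Nuclear receptors are transcription factors, most of which have a zinc finger domain that binds DNA. Most also have a pocket that binds a small fat-soluble molecule such as a steroid, thyroid hormone, retinoid, oxysterol, bile acid or fatty acid. Many bind DNA as a dimer with a retinoid X receptor and exchange corepressor complexes for coactivators when ligand is present. In fat they are known for the control of adipocyte formation, lipid storage and oxidation, and inflammation. The NR4A members differ from this scheme, since they act without a known natural hormone and their genes are switched on within minutes of a stimulus, as immediate-early genes are.

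The upstream sequences of the 3 NR4A genes are shown because 2 of these genes, Nr4a2 and Nr4a3, changed between genotypes in FIPs while Nr4a1 did not pass, and because all 3 share a short motif there. Each is given 5′ to 3′ on the strand of the gene, from 250 bases before the RefSeq transcription start (GRCm38.p6), with matches to TGACG on either strand in capitals. TGACG is part of the cAMP response element bound by CREB. The Nr4a1 window is chr15:101266596-101266845 on the plus strand and the Nr4a2 window is chr2:57124004-57124253 on the minus strand. The Nr4a1 window lies inside the gene as annotated in GENCODE M21 (101254269 to 101274795), with 0 of its bases in an exon. It is thus upstream of a start within the gene and not of the whole gene. The Nr4a3 window is chr4:48045055-48045304 on the plus strand, and of it the first 98 bases, chr4:48045055-48045152, are printed, since the remaining 152 lie in a first exon annotated in GENCODE M21.
Nr4a1: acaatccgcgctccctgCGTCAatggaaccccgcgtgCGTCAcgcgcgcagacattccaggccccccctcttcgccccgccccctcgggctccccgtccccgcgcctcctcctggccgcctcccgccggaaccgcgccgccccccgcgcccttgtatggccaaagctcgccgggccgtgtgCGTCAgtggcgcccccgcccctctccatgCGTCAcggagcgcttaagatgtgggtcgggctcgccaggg
Nr4a2: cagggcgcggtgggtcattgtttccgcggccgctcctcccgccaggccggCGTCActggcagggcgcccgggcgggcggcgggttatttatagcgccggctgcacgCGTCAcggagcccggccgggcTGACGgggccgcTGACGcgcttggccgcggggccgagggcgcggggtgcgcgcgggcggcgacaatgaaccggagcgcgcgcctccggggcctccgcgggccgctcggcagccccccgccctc
Nr4a3: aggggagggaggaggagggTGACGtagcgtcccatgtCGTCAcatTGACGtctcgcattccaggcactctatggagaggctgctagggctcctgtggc
Each of the 3 windows of 250 bases held 4 matches, none of them overlapping another, and 3 of those of Nr4a3 lie in the printed part. Of all 32851 RefSeq windows of that length, 17.8% held at least 1 match and 0.14% held at least 4. For 39 of the 42 receptor genes 58 windows were found, 13 of these windows (22.4%) held a match, near the share of all windows, and the 3 NR4A genes were the ones with 4. A match is a description of the letters and not evidence of binding.

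The depth of each library was estimated from the step between its smallest values, within a limited range of depths searched, at 6.6 to 8.5 megareads. Per library, 15972 to 17282 genes exceeded 1 CPM. The gates were visible in the transcripts, since all 12 interstitial progenitor markers, a list led by Dpp4 and Pi16, were higher in FIPs than in APCs in both genotypes. Zfp423 itself did not rise with the label. It differed by 0.06 log2 units between FIPs labelled transgenic and control FIPs (limma, Benjamini-Hochberg adjusted p = 0.933) and by −0.26 between the corresponding APCs (adjusted p = 0.108), or by −0.38 (adjusted p = 0.00440) without the labelled transgenic replicate 1 described next. The value in APCs lay opposite to the label, so the libraries are called labelled transgenic throughout. Replicate 1 of the APCs labelled transgenic stood apart from the other 4 of its group in markers of other cells. Its mean adipocyte marker level, 7.48 log2 CPM, was above the 6.61 to 6.84 of its group and within the 7.19 to 7.83 of control APCs. The mean erythroid marker level was 6.30 in this library, 5.0 to 5.45 in the rest of its group and 5.87 to 6.80 in control APCs. The calls of receptor genes between the APC groups are therefore given with and without that library, and those of lists with it included.

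Levels of the receptors ran from 0 in every library to 9.12 log2 CPM, the level of Nr4a1 in a control FIP library. Per kilobase of annotated exon, Nr4a1 was the highest of the 42 in every group, with a mean of 7.22 log2 CPM per kb in FIPs of both genotypes and 6.73 in APCs of both. Nr4a3 followed in FIPs, with 6.23 in those labelled transgenic and 5.70 in controls. In APCs the thyroid hormone receptor gene Thra, at 5.26 in those labelled transgenic and 5.27 in controls, stood above Nr4a3 at 4.91 and 4.63. The liver X receptor genes Nr1h2 and Nr1h3 and the retinoid X receptor gene Rxra lay between 4.18 and 5.10 in all groups. At the other end, Esr2, Hnf4g, Nr0b1, Nr0b2, Nr1i2, Nr1i3, Nr2e1 and Nr2e3 were at 0 in all 20 libraries. The tested genes Esrrb, Esrrg, Nr5a1, Nr5a2 and Rorb were at 0 in some libraries, and 28 were above 0 in all 20.

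**Figure D1:**
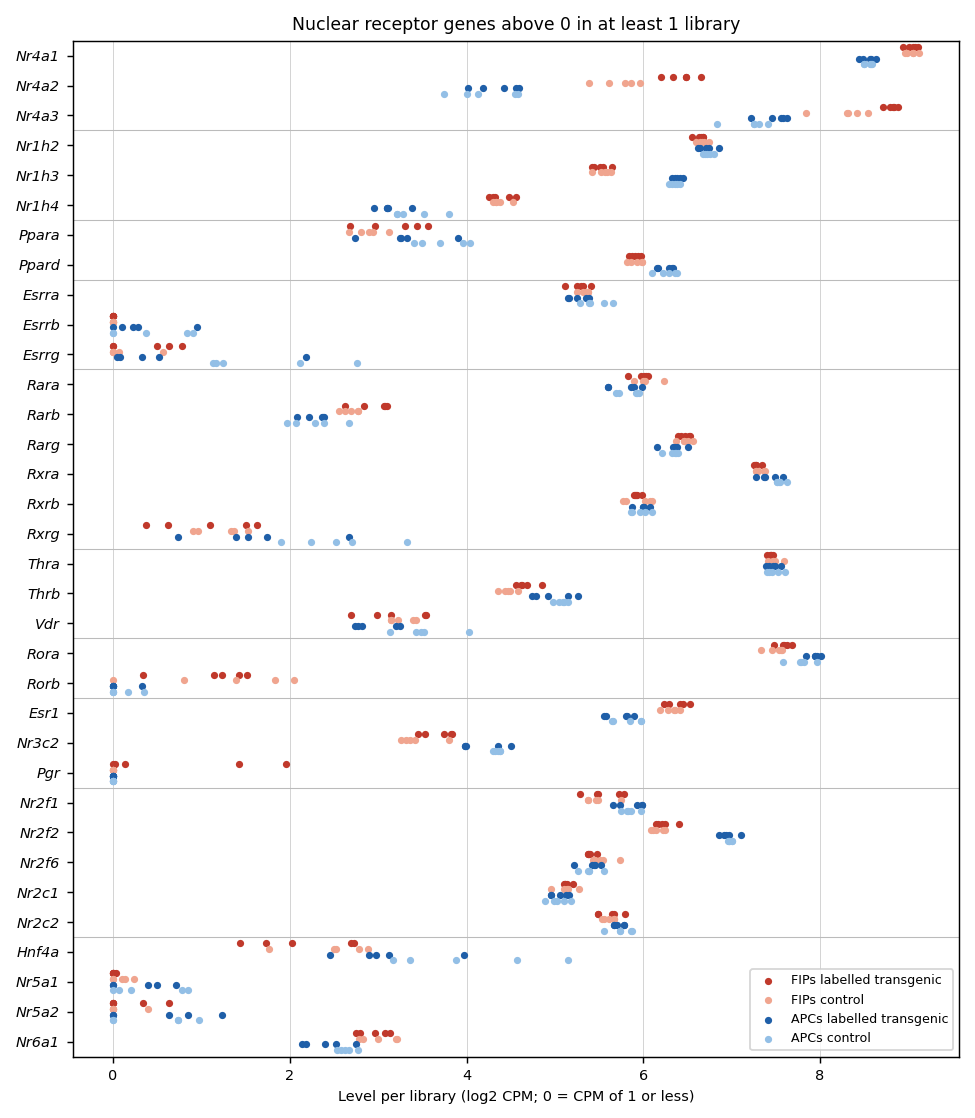
Level of each receptor gene in each library, in log2 CPM (x axis), for the 34 genes above 0 in at least 1 library. Each point is 1 library, with 4 rows of colour per gene for the 4 groups of 5, and the NR4A genes at the top show FIPs to the right of APCs with no overlap.

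FIPs and APCs were compared within each genotype, which asks how the 2 progenitor types of the same depot differ. In labelled transgenic mice 17 of the 33 tested receptor genes passed (limma, adjusted p under 0.05 over all 17435 genes tested), where 41.7% of all genes passed. Of the 17, 8 were higher and 9 lower in FIPs, against 22.7 and 19% of all genes. In control mice 21 of the 33 passed, where 47.5% of all genes passed. Of the 21, 9 were higher and 12 lower in FIPs, against 19.6 and 27.9% of all genes. The counts given below for lists of related genes in FIPs against APCs are to be read beside these shares. Among the 28 receptor genes above 0 in all libraries, 16 passed in labelled transgenic and 19 in control mice, against 45.1 and 48.7% of all such genes. The groups did not overlap for 12 receptor genes in labelled transgenic mice, against 29% of all genes, and for 17 in control mice, against 31.4% of all genes. The median absolute difference of the receptor genes was 0.31 log2 units in labelled transgenic and 0.40 in control mice, against 0.20 and 0.22 over all genes tested. In libraries of sorted pools, fewer cells of a type and less RNA per cell cannot be told apart.

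**Figure D2:**
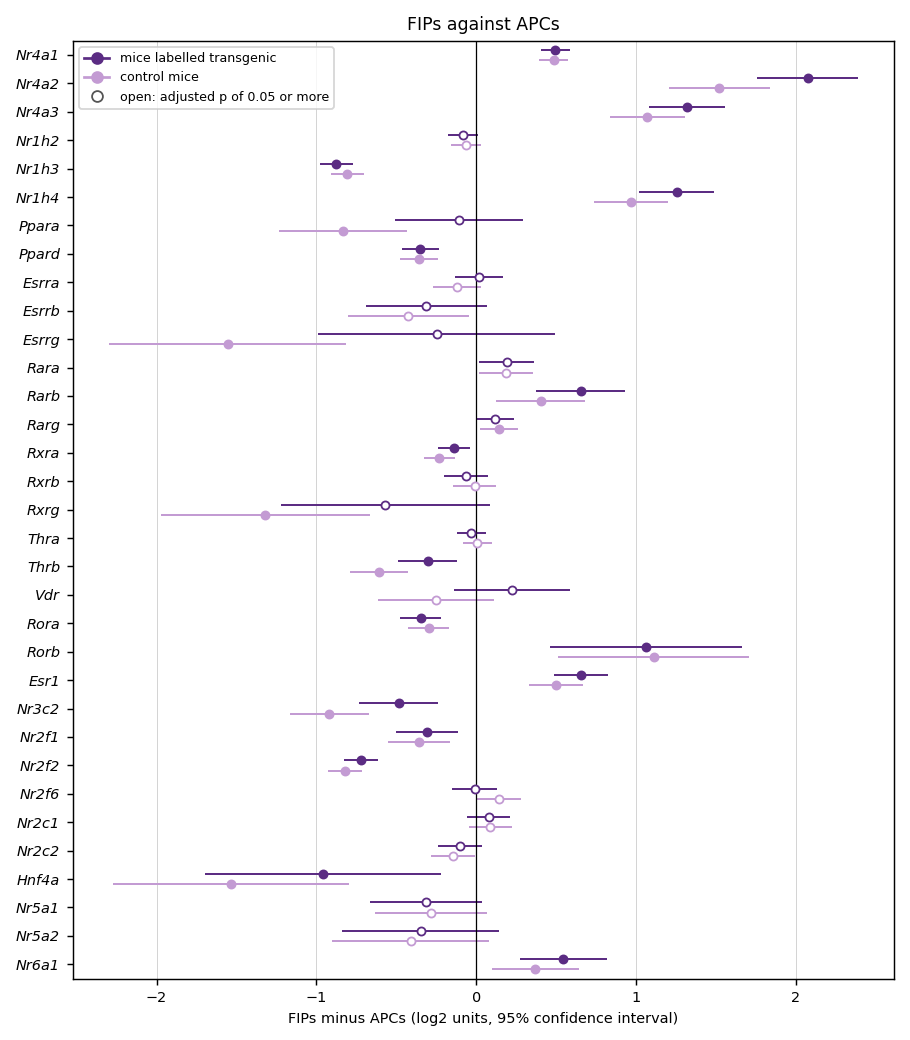
Difference between FIPs and APCs for each of the 33 tested receptor genes, in log2 units with 95% confidence intervals (x axis), in labelled transgenic and control mice. Filled points have an adjusted p under 0.05, and the plot runs from 2.07 for Nr4a2 in labelled transgenic mice to −1.56 for Esrrg in control mice.

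The 3 NR4A genes were higher in FIPs in both genotypes, with no overlap between the groups. Nr4a1 (chromosome 15, 101254269 to 101274795, GRCm38) encodes Nur77, an immediate-early receptor known in lymphocytes, liver and fat. Its level was 9.04 ± 0.07 log2 CPM (mean ± SD, n = 5) in FIPs labelled transgenic and 8.54 ± 0.08 in APCs labelled transgenic, and 9.03 ± 0.06 in control FIPs and 8.55 ± 0.04 in control APCs. The difference was 0.50 log2 units (SE 0.04, adjusted p = 2.80e-09) in labelled transgenic mice and 0.49 (SE 0.04, adjusted p = 4.37e-09) in controls, about 1.4-fold in both.

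Nr4a2 (chromosome 2, 57106830 to 57124003) encodes Nurr1, best known from dopamine neurons. In labelled transgenic mice it stood at 6.48, 6.34, 6.48, 6.65 and 6.20 log2 CPM in the 5 FIP libraries, against 4.42, 4.19, 4.59, 4.56 and 4.02 in the APC libraries. In control mice it stood at 5.96, 5.79, 5.61, 5.86 and 5.39 in FIPs, against 4.01, 4.58, 4.55, 4.13 and 3.74 in APCs. Every FIP library lay above every APC library, and the FIPs labelled transgenic lay above the control FIPs. The difference between the cell types was 2.07 log2 units, or 4.21-fold, in labelled transgenic mice (SE 0.15, adjusted p = 3.82e-10) and 1.52, or 2.87-fold, in controls (SE 0.15, adjusted p = 5.05e-08).

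Nr4a3 (chromosome 4, 48045153 to 48086447) encodes NOR1, the remaining NR4A receptor. In labelled transgenic mice it stood at 8.84, 8.82, 8.79, 8.88 and 8.71 log2 CPM in FIPs, against 7.22, 7.58, 7.62, 7.46 and 7.56 in APCs. In control mice the values were 8.54, 8.31, 8.30, 8.42 and 7.84 in FIPs, against 7.25, 7.41, 7.31, 7.25 and 6.83 in APCs. As with Nr4a2, the 4 groups were ordered with FIPs labelled transgenic highest and no FIP library within the APC range. The cell type difference was 1.32 log2 units, or 2.50-fold, in labelled transgenic mice (SE 0.11, adjusted p = 4.02e-09) and 1.07, or 2.10-fold, in controls (SE 0.11, adjusted p = 1.00e-07).

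The 3 genes did not differ between cell types to the same extent. Within each library the level of Nr4a2 minus that of Nr4a1 was 1.58 log2 units higher in FIPs than in APCs of labelled transgenic mice and 1.03 higher in controls, and Nr4a3 minus Nr4a1 was 0.82 and 0.59 higher. Each of these 4 contrasts had an exact two-sided permutation p of 0.00794, the smallest that 5 against 5 libraries can give, and an adjusted p of 0.0265 over 40 tests of 10 pairs of related receptors in 4 comparisons. These pairs were chosen after the data had been seen. A list of 27 other immediate-early and dissociation genes, among them Fos, Jun and Egr1, was set beside them. In FIPs of labelled transgenic mice 3 were higher and 14 lower, against 22.7 and 19% of all genes. In control FIPs 3 were higher and 7 lower, against 19.6 and 27.9% of all genes. Ier3 was among the higher ones (0.52 and 0.70 log2 units), and the heat shock genes Hspa1a (−1.04 and −0.91) and Hspa1b (−0.92 and −0.79) were among the lower ones. The median difference of the list was −0.13 in labelled transgenic mice and −0.01 in controls, against −0.01 and −0.06 over all genes.

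**Figure D3:**
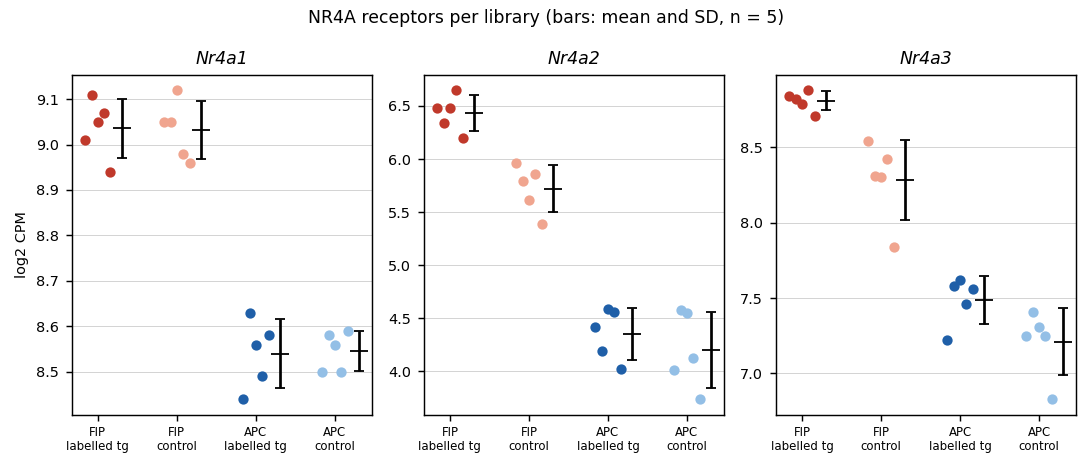
Levels of Nr4a1, Nr4a2 and Nr4a3 in each library, in log2 CPM (y axis, a separate scale per gene that does not start at 0), with the mean and SD of each group of 5 as bars. Nr4a2 and Nr4a3 show 3 steps, FIPs labelled transgenic, control FIPs and APCs, while Nr4a1 shows 9.04 and 9.03 in the FIP groups.

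The liver X receptors bind oxysterols and switch on cholesterol efflux and fatty acid synthesis. Their genes differed in pattern. Nr1h3, encoding LXRα (chromosome 2, 91184061 to 91202834), was lower in FIPs in both genotypes. It stood at 5.64, 5.54, 5.51, 5.42 and 5.44 log2 CPM in FIPs labelled transgenic, against 6.36, 6.45, 6.42, 6.38 and 6.32 in the corresponding APCs. In controls it stood at 5.42, 5.57, 5.52, 5.59 and 5.63 in FIPs, against 6.32, 6.29, 6.36, 6.42 and 6.38 in APCs. The ranges were far apart, with a difference of −0.88 in labelled transgenic mice (SE 0.05, adjusted p = 2.87e-12) and −0.81 in controls (SE 0.05, adjusted p = 1.17e-11). Nr1h2, encoding LXRβ, averaged 6.63 ± 0.05 in FIPs labelled transgenic and 6.71 ± 0.10 in the APCs, and 6.67 ± 0.05 in control FIPs and 6.73 ± 0.05 in control APCs. Its difference did not pass, with 95% confidence intervals of −0.17 to 0.01 in labelled transgenic mice and −0.15 to 0.03 in controls. Within libraries, Nr1h3 minus Nr1h2 differed by −0.80 between FIPs and APCs labelled transgenic and by −0.75 between control FIPs and APCs (exact permutation p = 0.00794 each, adjusted p = 0.0265).

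Of 15 tested liver X receptor targets, 5 were higher and 3 lower in FIPs of labelled transgenic mice, and 2 were higher and 9 lower in controls. Apoe, an apolipoprotein that carries cholesterol, was lower in FIPs in both, with a difference of −0.33 log2 units. Lpl, which releases fatty acids from circulating triglycerides, differed by −0.37 in labelled transgenic and −0.34 in control mice. Scd2, a fatty acid desaturase, was 0.80 higher in FIPs labelled transgenic than in the corresponding APCs. The list's median was −0.12 and −0.25.

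Nr1h4 encodes FXR, the bile acid receptor of liver and intestine (chromosome 10, 89454234 to 89533585), and it was higher in FIPs. Its values were 4.56, 4.25, 4.32, 4.48 and 4.30 log2 CPM in FIPs labelled transgenic, against 3.38, 2.95, 3.10, 3.10 and 3.11 in the corresponding APCs. Control mice gave 4.33, 4.33, 4.30, 4.52 and 4.38 in FIPs, against 3.52, 3.21, 3.21, 3.80 and 3.28 in APCs. No APC library reached the lowest FIP library. The difference was 1.25 (2.38-fold, SE 0.11, adjusted p = 6.69e-09) in labelled transgenic mice and 0.97 (1.96-fold, SE 0.11, adjusted p = 3.38e-07) in controls.

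The peroxisome proliferator-activated receptors sense fatty acids. Ppard, the broadly expressed member (chromosome 17, 28232700 to 28301474), was lower in FIPs, at 5.90 ± 0.05 log2 CPM in those labelled transgenic and 6.25 ± 0.08 in the corresponding APCs, and 5.91 ± 0.08 in control FIPs and 6.27 ± 0.11 in control APCs. The differences were −0.35 (adjusted p = 1.60e-05) and −0.36 (adjusted p = 1.38e-05), with no overlap in either genotype. Ppara, the receptor of fatty acid oxidation in liver (chromosome 15, 85734983 to 85802819), stood at 3.56, 3.44, 3.30, 2.68 and 2.96 in FIPs labelled transgenic, against 3.90, 3.25, 3.26, 3.33 and 2.74 in the APCs. Controls gave 3.12, 2.90, 2.80, 2.94 and 2.67 in FIPs, against 3.40, 3.70, 3.49, 3.96 and 4.04 in APCs. The groups overlapped in labelled transgenic mice (difference −0.11, 95% confidence interval −0.50 to 0.29, adjusted p = 0.685) and did not overlap in controls (−0.83, SE 0.19, adjusted p = 0.00122).

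Of 18 tested targets of PPARα and PPARδ, 2 were higher and 5 lower in FIPs of labelled transgenic mice, and 1 was higher and 14 lower in controls, with a median of −0.14 and −0.44. Plin2, a lipid droplet coat protein, differed by −0.61 log2 units in labelled transgenic and −0.49 in control mice. Pdk4, which restrains glucose oxidation, differed by −0.55 and −1.02. The same mice differed in markers of mature adipocytes, of which 2 of 12 were lower in FIPs labelled transgenic and 12 of 12 in control FIPs. Their summed level was 972 to 1772 CPM in FIPs labelled transgenic and 1420 to 2552 in APCs labelled transgenic, and 1457 to 1726 in control FIPs and 2119 to 3237 in control APCs. The part of this in the Ppara difference was not tested.

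The estrogen-related receptors are orphan receptors that act with PGC-1 coactivators on mitochondrial genes. Esrra averaged 5.28 ± 0.11 log2 CPM in FIPs labelled transgenic and 5.26 ± 0.11 in the APCs, and 5.33 ± 0.05 in control FIPs and 5.46 ± 0.15 in control APCs, and did not pass in either genotype. Esrrg (chromosome 1, 187608791 to 188214885) was near the limit of detection, at 0.63, 0, 0.78, 0 and 0.50 in FIPs labelled transgenic, against 2.18, 0.04, 0.33, 0.52 and 0.08 in the APCs. Controls gave 0.56, 0.07, 0, 0 and 0 in FIPs, against 1.24, 1.13, 1.17, 2.76 and 2.11 in APCs. In labelled transgenic mice, where 1 APC library stood far above the rest, the difference was −0.25 (SE 0.35, adjusted p = 0.608). Control FIPs were lower without overlap, with a difference of −1.56 (SE 0.35, adjusted p = 0.00118). Esrrb was at 0 in all 10 FIP libraries and reached at most 0.95 in APCs, with means of 0.31 ± 0.37 in those labelled transgenic and 0.42 ± 0.44 in controls. Of 15 ERR partner and mitochondrial genes, 3 were lower in FIPs of labelled transgenic mice and 10 in controls, and none was higher. The coactivator gene Ppargc1a differed by −0.86 and −1.38 log2 units.

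Retinoic acid receptors bind retinoic acid, and retinoid X receptors are the shared dimer partners of many members. Rarb, itself a target of retinoic acid (chromosome 14, 16430839 to 16819156), was higher in FIPs. It stood at 3.06, 3.10, 3.08, 2.62 and 2.84 log2 CPM in FIPs labelled transgenic, against 2.38, 2.36, 2.22, 2.39 and 2.08 in the APCs, a difference of 0.65 with no overlap (SE 0.13, adjusted p = 0.000355). Controls gave 2.77, 2.56, 2.77, 2.69 and 2.62 in FIPs, against 2.07, 2.29, 2.39, 2.67 and 1.97 in APCs, where 1 APC library reached the FIP range (0.40, SE 0.13, adjusted p = 0.0150). Of the Rarb exons, 34.1% overlap those of Top2b on the opposite strand, and the strand setting of the counts is not given, so reads of the 2 genes cannot be told apart there.

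Rara averaged 5.98 ± 0.09 in FIPs labelled transgenic and 5.79 ± 0.18 in the APCs, and 6.03 ± 0.12 in control FIPs and 5.84 ± 0.12 in control APCs, with differences of 0.19 in both genotypes that did not pass (adjusted p = 0.0575 and 0.0565). Rara passed in 3 of 10 fits that left out 1 library in each genotype, those without APC replicate 2 or 4 or FIP replicate 5 in labelled transgenic mice and those without APC replicate 3 or 5 or FIP replicate 3 in controls. Rarg averaged 6.47 ± 0.06 and 6.35 ± 0.13 in FIPs and APCs labelled transgenic, and 6.47 ± 0.07 and 6.33 ± 0.07 in control FIPs and APCs. Its difference of 0.12 did not pass in labelled transgenic mice (adjusted p = 0.0771), and that of 0.14 in controls did (adjusted p = 0.0333). With 1 library left out, Rarg passed in labelled transgenic mice without APC replicate 4 (adjusted p = 0.0165), and its call in controls was lost without APC replicate 3 or 5 or FIP replicate 2 or 3 (adjusted p up to 0.0973). Among the retinoid X receptors, Rxra was lower in FIPs, at 7.28 ± 0.04 against 7.42 ± 0.12 in APCs of labelled transgenic mice (−0.14, adjusted p = 0.0153, or −0.10 with adjusted p = 0.0516 without APC replicate 1) and 7.32 ± 0.05 against 7.55 ± 0.05 in controls (−0.23, adjusted p = 0.000283). Rxrb lay between group means of 5.93 and 5.99 in all 4 groups, with SDs of 0.04 to 0.16, and did not pass.

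Rxrg, the member typical of muscle and of some neurons (chromosome 1, 167598384 to 167639623), was low and spread widely. It stood at 1.63, 1.1, 1.5, 0.62 and 0.37 log2 CPM in FIPs labelled transgenic, against 2.67, 1.74, 1.53, 1.39 and 0.74 in the APCs. Controls gave 0.90, 1.53, 1.33, 0.96 and 1.37 in FIPs, against 2.24, 1.90, 2.70, 2.52 and 3.33 in APCs. It was lower in control FIPs without overlap (−1.32, SE 0.31, adjusted p = 0.00160) and did not pass in labelled transgenic mice (−0.57, SE 0.31, adjusted p = 0.152), except without APC replicate 5 (adjusted p = 0.0447). Of 13 tested genes of retinoid binding and turnover, 3 were higher and 2 lower in FIPs of labelled transgenic mice, and 2 were higher and 5 lower in controls. Rdh10, which makes retinaldehyde from retinol, was 0.71 and 0.59 log2 units higher in FIPs. Aldh1a1, which oxidises retinaldehyde to retinoic acid, was lower, with differences of −0.74 and −0.56.

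Thyroid hormone receptors came in a high and a low form. Thra averaged 7.44 ± 0.03 log2 CPM in FIPs labelled transgenic and 7.47 ± 0.07 in the APCs, and 7.49 ± 0.07 in control FIPs and 7.48 ± 0.08 in control APCs, with 95% confidence intervals of −0.11 to 0.05 and −0.08 to 0.09 for the difference. Thrb (chromosome 14, 17660261 to 18038090) was lower in FIPs, at 4.63, 4.62, 4.68, 4.56 and 4.85 in those labelled transgenic, against 5.26, 4.79, 4.92, 5.15 and 4.74 in the APCs. Controls gave 4.35, 4.58, 4.43, 4.49 and 4.47 in FIPs, against 5.15, 4.98, 5.09, 5.10 and 5.04 in APCs. One pair of ranges overlapped, that of labelled transgenic mice (−0.30, SE 0.08, adjusted p = 0.00620), and the control ranges were apart (−0.61, SE 0.08, adjusted p = 6.36e-06). Of 11 tested genes of thyroid hormone handling and response, 1 was higher and 4 lower in FIPs of labelled transgenic mice and 7 were lower in controls. Dio3, which inactivates thyroid hormone, differed by −0.85 and −0.99, and the hormone-responsive transcription factor gene Klf9 by −0.34 in both.

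Vdr, the vitamin D receptor gene (chromosome 15, 97854425 to 97910630), did not pass between cell types in either genotype. Its means were 3.18 ± 0.36 log2 CPM in FIPs labelled transgenic and 2.96 ± 0.25 in the APCs, and 3.27 ± 0.14 in control FIPs and 3.52 ± 0.32 in control APCs. Of 8 tested genes of vitamin D handling and response, 1 was higher and 2 lower in FIPs of labelled transgenic mice, and 1 was higher and 5 lower in controls. The higher one in both was Spp1, encoding osteopontin, by 5.16 and 3.89 log2 units, and Cyp27a1, a vitamin D and sterol hydroxylase, was lower, by differences of −0.56 and −0.48.

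The retinoic acid receptor-related orphan genes had unlike patterns. Rora, which takes part in circadian and lipid gene control (chromosome 9, 68653786 to 69388246), was lower in FIPs without overlap, at 7.59 ± 0.07 log2 CPM against 7.94 ± 0.06 in APCs of labelled transgenic mice (−0.35, adjusted p = 5.97e-05) and 7.49 ± 0.10 against 7.78 ± 0.14 in controls (−0.30, adjusted p = 0.000342). Rorb, known from retina and brain (chromosome 19, 18930605 to 19111196), was found mostly in FIPs. It stood at 1.52, 0.34, 1.14, 1.42 and 1.23 in FIPs labelled transgenic, against 0, 0, 0.33, 0 and 0 in the APCs. Controls gave 0.80, 1.39, 1.83, 2.05 and 0 in FIPs, against 0, 0, 0.17, 0.35 and 0 in APCs. A single control FIP library was at 0, within the APC range. Rorb is counted among the genes that passed in both genotypes, but it met the filter on low values through the FIPs, where it is high, and 7 of the 10 APC libraries were listed at 0, so no fold or test is given for it.

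Of the steroid receptors, Esr1, encoding estrogen receptor α (chromosome 10, 4611593 to 5005614), was higher in FIPs. It stood at 6.41, 6.53, 6.29, 6.23 and 6.45 log2 CPM in FIPs labelled transgenic, against 5.89, 5.81, 5.80, 5.58 and 5.56 in the APCs. Controls gave 6.19, 6.28, 6.36, 6.35 and 6.42 in FIPs, against 5.65, 5.66, 5.85, 5.97 and 5.97 in APCs. The ranges were apart in both genotypes, with differences of 0.65 (1.57-fold, SE 0.08, adjusted p = 6.96e-07) and 0.50 (1.41-fold, SE 0.08, adjusted p = 2.57e-05). Of 9 tested sex steroid enzymes and estrogen targets, 1 was higher and 1 lower in FIPs of labelled transgenic mice, and 1 was higher and 4 lower in controls. The aromatase gene Cyp19a1 was at 0 in every library.

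Nr3c2, the mineralocorticoid receptor gene (chromosome 8, 76899442 to 77245012), went the other way. It stood at 3.74, 3.53, 3.45, 3.83 and 3.82 log2 CPM in FIPs labelled transgenic, against 4.35, 3.98, 3.98, 4.50 and 3.99 in the APCs. Controls gave 3.36, 3.80, 3.31, 3.42 and 3.26 in FIPs, against 4.38, 4.36, 4.30, 4.38 and 4.32 in APCs. FIPs were lower in both genotypes without overlap, with differences of −0.49 (SE 0.12, adjusted p = 0.00190) and −0.92 (SE 0.12, adjusted p = 1.84e-06). Of 12 genes of the mineralocorticoid pathway, 5 were lower in FIPs of labelled transgenic mice and 8 in controls, and none was higher. Hsd11b1, which regenerates active glucocorticoid and so a ligand of this receptor, differed by −0.95 and −0.97 log2 units, and H6pd, its cofactor supplier, by −0.67 and −0.55.

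Pgr, the progesterone receptor gene, was listed at 0 in 16 libraries. The 4 others were all FIPs labelled transgenic, at 0.02, 0.14, 1.42 and 1.96 log2 CPM, the fifth of that group being at 0. It is given as a description, with no test.

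The COUP transcription factors are orphan receptors of mesenchymal and endothelial development. Nr2f2, encoding COUP-TFII (chromosome 7, 70351944 to 70366735), stood at 6.24, 6.14, 6.21, 6.40 and 6.17 log2 CPM in FIPs labelled transgenic, against 6.86, 6.91, 7.10, 6.97 and 6.93 in the APCs. Controls gave 6.14, 6.22, 6.11, 6.09 and 6.24 in FIPs, against 6.97, 6.97, 6.96, 7.0 and 7.0 in APCs. All FIP libraries were below all APC libraries, with differences of −0.72 (SE 0.05, adjusted p = 1.21e-10) and −0.82 (SE 0.05, adjusted p = 1.67e-11). Nr2f1, encoding COUP-TFI, was lower by less, at 5.55 ± 0.20 against 5.86 ± 0.15 in APCs of labelled transgenic mice (−0.31, adjusted p = 0.00859) and 5.49 ± 0.16 against 5.84 ± 0.08 in controls (−0.36, adjusted p = 0.00279). Within libraries, Nr2f2 minus Nr2f1 differed by −0.41 and −0.46 (exact permutation p = 0.00794 each, adjusted p = 0.0265). Since Nr2f2 is also a gene of venous endothelium, the endothelial markers are given beside it. In FIPs 1 of 18 was lower and 1 higher in labelled transgenic mice, and 17 were lower and 1 higher in controls. The part of these markers in the Nr2f2 difference was not tested.

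The remaining orphan members changed little or were scarce. Nr2f6 averaged 5.40 ± 0.04 log2 CPM in FIPs and 5.41 ± 0.12 in APCs labelled transgenic, and 5.53 ± 0.12 and 5.39 ± 0.11 in control FIPs and APCs, and 54.4% of its exon bases overlap Ocel1 on the other strand. Nr2c1 lay between group means of 5.04 and 5.13 and Nr2c2 between 5.61 and 5.75, and none of these 3 genes passed, although Nr2c2 and Nr2f6 did in control mice without APC replicate 5 (adjusted p = 0.0103 and 0.0259). Nr6a1, the germ cell nuclear factor gene (chromosome 2, 38723370 to 38927688), was higher in FIPs. It stood at 3.08, 3.13, 2.96, 2.79 and 2.75 in FIPs labelled transgenic, against 2.14, 2.40, 2.75, 2.52 and 2.18 in the APCs (0.54, SE 0.13, adjusted p = 0.00160). Its control means were 3.0 ± 0.20 in FIPs and 2.63 ± 0.09 in APCs (0.37, SE 0.13, adjusted p = 0.0217), a call lost without FIP replicate 2 or 4 (adjusted p up to 0.0623). Nr5a1 and Nr5a2, receptors of steroid-making tissue, liver and pancreas, had group means of at most 0.54 and did not pass.

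Hnf4a, a receptor gene of liver and gut epithelium (chromosome 2, 163506808 to 163572910), was lower in FIPs. It stood at 2.69, 2.02, 2.73, 1.73 and 1.44 log2 CPM in FIPs labelled transgenic, against 3.97, 2.90, 2.97, 3.12 and 2.45 in the APCs, where the ranges overlapped (−0.96, SE 0.35, adjusted p = 0.0333). That call was lost in 5 of 10 fits that left out 1 library, those without APC replicate 1 (−0.74, adjusted p = 0.102) or 4 or FIP replicate 2, 4 or 5. Controls gave 2.52, 2.50, 1.77, 2.89 and 2.78 in FIPs, against 3.36, 3.17, 3.88, 5.15 and 4.57 in APCs, where they did not (−1.53, SE 0.35, adjusted p = 0.00129). Of the APC libraries, those with the highest Hnf4a levels were control replicates 4 and 5 (5.15 and 4.57) and labelled transgenic replicate 1 (3.97), and their mean adipocyte marker levels were 7.5, 7.83 and 7.48 log2 CPM. Control APCs as a group had a median marker level of 7.49, and their Hnf4a levels went down to 3.17. Of 12 mesothelial markers, 2 were higher and 2 lower in FIPs of labelled transgenic mice and 1 was higher and 10 lower in controls. Their summed level was 307 to 348 CPM in FIPs and 217 to 305 in APCs labelled transgenic, and 270 to 374 in control FIPs and 300.2 to 339 in control APCs. In FIPs labelled transgenic 3 of 6 detected erythroid, 9 of 14 detected mural and 1 of 20 macrophage markers were lower, and in control FIPs 6, 14 and 2 were, with the mural marker Pln at 0 throughout. The part of these markers in the Hnf4a, Rxrg and Esrrg differences was not tested.

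**Figure D4:**
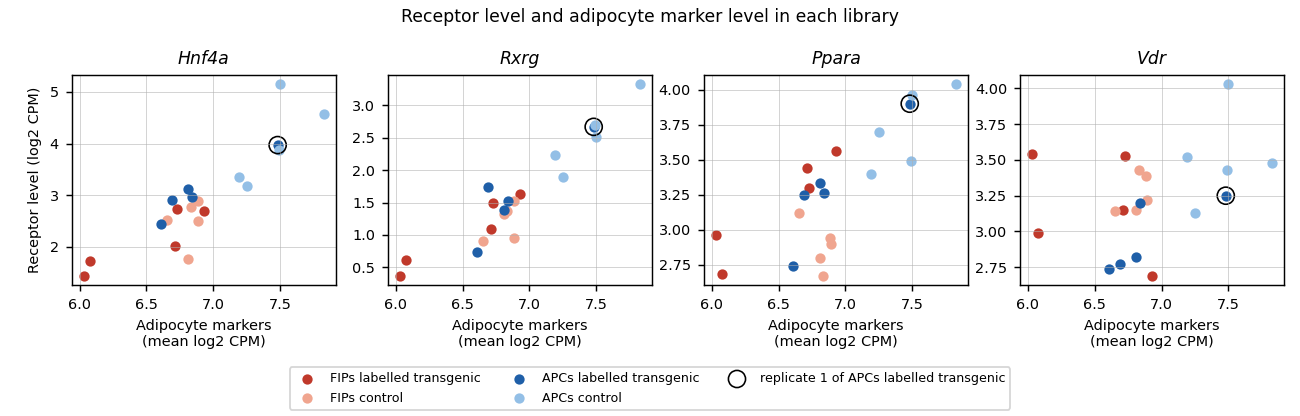
Levels of Hnf4a, Rxrg, Ppara and Vdr (y axes, log2 CPM) against the mean level of 12 adipocyte markers (x axis, log2 CPM) in each of the 20 libraries, with replicate 1 of the APCs labelled transgenic ringed. The ringed library, at an adipocyte marker level of 7.48, sits among the control APCs in each panel, and for Hnf4a, Rxrg and Ppara the highest levels belong to libraries at the right.

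The comparison of labelled transgenic with control mice asks what the Mural-Zfp423TG genotype changes within each population. In FIPs 2 of the 33 receptor genes passed, both higher, where 0.373% of all genes passed and 0.241% were higher. The 2 genes were Nr4a2 and Nr4a3, and they were also the 2 receptor genes whose groups did not overlap, against 2.89% of all genes. Nr4a2 averaged 6.43 ± 0.17 log2 CPM in FIPs labelled transgenic and 5.72 ± 0.23 in control FIPs (n = 5 each), and its lowest labelled transgenic library, at 6.20, was above the highest control, at 5.96. The rise was 0.71 log2 units, or 1.63-fold (SE 0.15, limma adjusted p = 0.0367, exact permutation p = 0.00794). Nr4a3 averaged 8.81 ± 0.06 and 8.28 ± 0.27, with the lowest labelled transgenic library at 8.71 and the highest control at 8.54. It rose by 0.53 log2 units, or 1.44-fold (SE 0.11, limma adjusted p = 0.0367, exact permutation p = 0.00794). Each call was kept in 2 of 10 fits that left out 1 FIP library. The adjusted p ranged from 0.0225 to 0.115 for Nr4a2 and from 0.0310 to 0.104 for Nr4a3 over those fits, and the calls were lost without control replicate 2, 3, 4 or 5 or labelled transgenic replicate 1, 2, 3 or 4.

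Nr4a1 stood at 9.04 ± 0.07 and 9.03 ± 0.06 in the same FIPs, a difference of 0.00 with a 95% confidence interval of −0.08 to 0.09. Within each library, Nr4a2 minus Nr4a1 was −2.61 ± 0.15 in FIPs labelled transgenic and −3.31 ± 0.22 in control FIPs, and Nr4a3 minus Nr4a1 was −0.23 ± 0.05 and −0.75 ± 0.24 (exact permutation p = 0.00794 for each contrast, adjusted p = 0.0265 over the 40 tests). Since Nr4a1 differed by 0.00, both contrasts repeat the Nr4a2 and Nr4a3 differences over fewer tests. The pairs were chosen after the data had been seen, so the contrasts add no separate support to the 2 calls. None of the 27 other immediate-early and dissociation genes passed between the FIP groups (limma), 2 had an unadjusted p under 0.05, and the median of the list was −0.05 log2 units, against 0.01 over all genes. Fosl1 differed by 0.31 (adjusted p = 0.246) and Fos by −0.11 (adjusted p = 0.365). The summed level of the list was 9460 to 10526 CPM in FIPs labelled transgenic and 9798 to 11286 in control FIPs.

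The other 31 tested receptor genes did not pass in FIPs, and 2 of them had an unadjusted p under 0.05. Thrb was 4.67 ± 0.11 log2 CPM in FIPs labelled transgenic and 4.46 ± 0.08 in controls (0.20, 95% confidence interval 0.03 to 0.38, adjusted p = 0.381). Nr3c2 was 3.67 ± 0.17 and 3.43 ± 0.22 (0.24, 95% confidence interval 0.00 to 0.49, adjusted p = 0.469). Within libraries, Thrb minus Thra was 0.25 higher in FIPs labelled transgenic (exact permutation p = 0.00794, adjusted p = 0.0265 over the tests of related pairs). Thra itself differed by −0.05, so this contrast largely repeats the Thrb difference over fewer tests. The pairs were chosen after the data had been seen, so the contrast adds no separate support for a change of Thrb, which did not pass. The median absolute difference of the receptor genes was 0.06 log2 units, against 0.07 over all genes. Of the pathway lists, 1 gene passed in FIPs. It was Tbl1xr1, a subunit of the NCoR and SMRT corepressor complexes, which rose by 0.20 (SE 0.04, adjusted p = 0.0266). No marker of macrophages, endothelium, mural cells, mesothelium, adipocytes or erythroid cells passed in FIPs (limma), and 13 of 20 macrophage, 11 of 18 endothelial, 5 of 14 mural, 3 of 12 adipocyte and 1 of 12 mesothelial markers had an unadjusted p under 0.05. The medians ran from −0.50 for macrophage to 0.32 for endothelial markers.

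**Figure D5:**
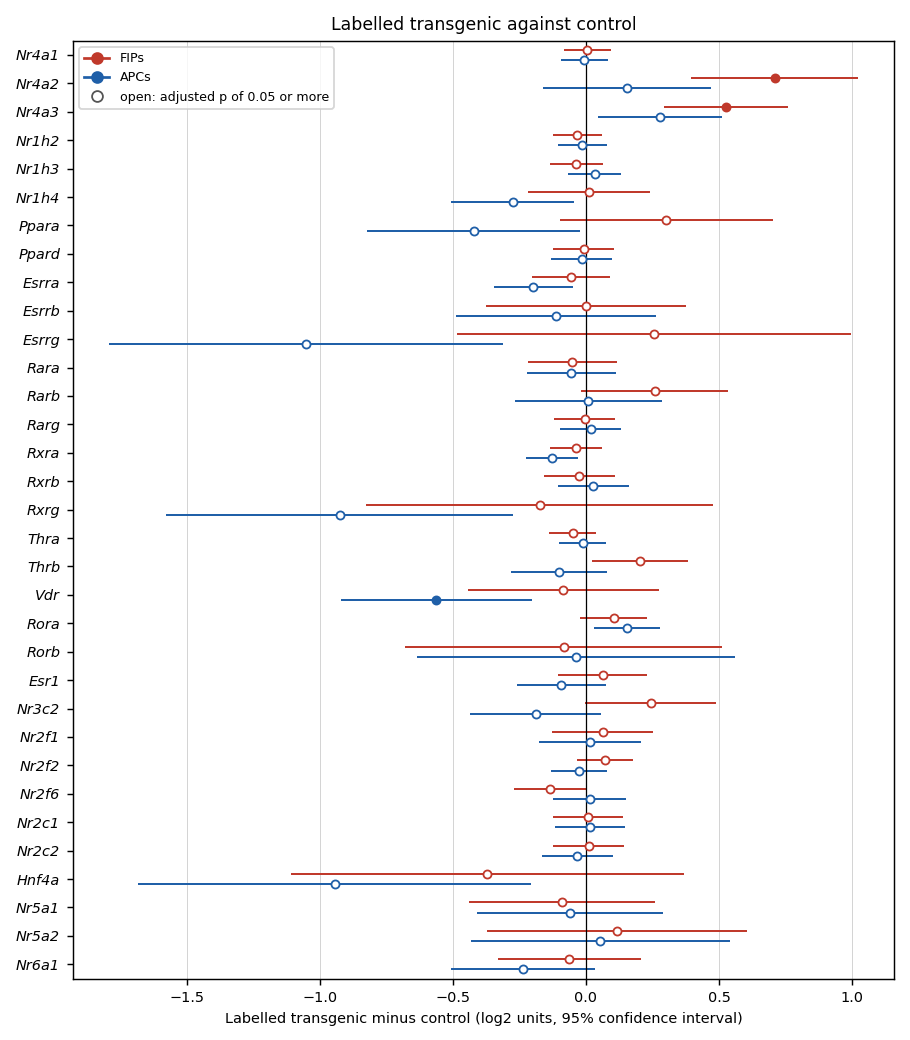
Labelled transgenic minus control for each tested receptor gene in FIPs and in APCs, in log2 units with 95% confidence intervals (x axis). Filled points have an adjusted p under 0.05, and they are Nr4a2 (0.71) and Nr4a3 (0.53) in FIPs and Vdr (−0.56) in APCs.

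In APCs 1 of the 33 receptor genes passed between genotypes and it was lower, where 8.01% of all genes passed and 5.91% were lower. None had groups without overlap, against 2.92% of all genes. The gene was Vdr. It stood at 3.25, 2.77, 3.2, 2.82 and 2.74 log2 CPM in APCs labelled transgenic, against 3.52, 3.13, 3.43, 4.03 and 3.48 in control APCs. The ranges overlapped, since the lowest control library lay below 2 libraries of the labelled transgenic group. Vdr fell by 0.56 log2 units (SE 0.17, limma adjusted p = 0.0475, exact permutation p = 0.0238). The call was kept in 3 of 10 fits that left out 1 APC library, with adjusted p from 0.0200 to 0.136, and was lost without control replicate 3, 4 or 5 or labelled transgenic replicate 2, 3, 4 or 5. Of 8 vitamin D genes, 2 were lower, Spp1 by 1.07 (adjusted p = 0.0130) and Lrp2, an endocytic receptor for the vitamin D carrier, by 0.99 (adjusted p = 0.0494).

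A further 9 receptor genes had an unadjusted p under 0.05 in APCs and did not pass after adjustment. Among those lower in APCs labelled transgenic were Esrrg at 0.63 ± 0.89 log2 CPM against 1.68 ± 0.73 in control APCs (−1.05, adjusted p = 0.0668), Rxrg at 1.61 ± 0.70 against 2.54 ± 0.54 (−0.92, adjusted p = 0.0676) and Hnf4a at 3.08 ± 0.56 against 4.03 ± 0.83 (−0.94, adjusted p = 0.0960). Esrra and Rxra differed by −0.20 and −0.13 (adjusted p = 0.0761 and 0.0764). Nr4a3 stood at 7.49 ± 0.16 in APCs labelled transgenic and 7.21 ± 0.22 in control APCs (0.28, adjusted p = 0.117), and Nr4a2 at 4.36 ± 0.25 and 4.20 ± 0.36 (0.15, adjusted p = 0.562). Within libraries, Nr4a3 minus Nr4a1 was −1.05 ± 0.10 in APCs labelled transgenic and −1.34 ± 0.24 in control APCs, a difference of 0.28 that passed over the 40 tests as it did in FIPs (exact permutation p = 0.0159, adjusted p = 0.0423). The pairs of the 40 tests were chosen after the data had been seen. Nr4a1 itself differed by −0.01 between the APC groups, so the contrast repeats the Nr4a3 difference over fewer tests.

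Leaving out replicate 1 of the APCs labelled transgenic changed this count to 9 receptor genes, 8 lower and 1 higher, while the share of all genes that passed went to 16.3%. The 8 lower genes were Esrrg (−1.44, adjusted p = 0.00276), Rxrg (−1.19, adjusted p = 0.00874), Hnf4a (−1.17, adjusted p = 0.0284), Vdr (−0.64, adjusted p = 0.0200), Ppara (−0.57, adjusted p = 0.0335), Nr1h4 (−0.34, adjusted p = 0.0391), Esrra (−0.23, adjusted p = 0.0349) and Rxra (−0.17, adjusted p = 0.00781). The higher gene was Nr4a3 (0.34, adjusted p = 0.0378). Without control replicate 1 or 2 the count was 5 or 4, where 14.2 or 10.3% of all genes passed. Without any other single APC library it was 0, where 1.04 to 3.46% of all genes passed. Replicate 1 of the APCs labelled transgenic was singled out from these same data, by marker levels within the range of control APCs. The calls without it therefore describe how the count depends on 1 library. In the libraries themselves, replicate 1 held the highest value of its group for Esrrg, Rxrg, Hnf4a, Ppara, Vdr, Nr1h4, Esrra and Rxra, and the lowest for Nr4a3.

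In the fit over all 4 groups, markers of other cells moved with genotype in APCs. With only the APC groups compared, 0 of 17435 genes passed, so none of the calls below was kept there. With 1 APC library left out, the share of all genes that passed ran from 1.04 to 16.3%. The list counts below are from the fit with all libraries. Of 12 adipocyte markers 9 were lower in APCs labelled transgenic, as were 6 of 6 detected erythroid, 13 of 20 macrophage, 4 of 12 mesothelial, 1 of 18 endothelial and 1 of 14 detected mural markers, and none was higher. Their summed levels in APCs labelled transgenic and in control APCs were 1420 to 2552 and 2119 to 3237 CPM for adipocyte markers and 454 to 1043 and 805 to 1544 for erythroid markers. For macrophage markers they were 347 to 584 and 549 to 898 CPM. Of the 12 interstitial progenitor markers, the list that was higher in FIPs, 8 were also lower and 0 higher, with a median of −0.50 log2 units. Their mean level per library was 4.215 to 4.477 log2 CPM in APCs labelled transgenic and 4.464 to 4.842 in control APCs. Over all genes tested, 5.91% were lower and 2.1% higher. Among genes of receptor pathways, 6 of 18 PPAR targets, 5 of 15 liver X receptor targets, 2 of 11 thyroid hormone genes and 1 of 15 ERR partner genes were lower and none was higher. They included the acetyl-CoA carboxylase gene Acaca (−0.61), Scd2 (−0.56) and the coactivator gene Ppargc1b (−0.82). The mineralocorticoid pathway had 2 of 12 genes higher, H6pd (0.15) and Fkbp5 (0.40), and the retinoid list had Aldh1a1 higher (0.23) and Dhrs9 and Rbp4 lower (−0.94 and −0.65). The part of the other cell types, FIPs included, in the receptor differences between APC groups was not tested.

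The genotype by cell type interaction asks whether the genotype difference in FIPs departs from that in APCs. None of the 33 receptor genes and 0% of the 17435 genes passed (limma), and 5 receptor genes had an unadjusted p under 0.05. For Nr4a2 the interaction was 0.55 log2 units (SE 0.21, adjusted p = 0.273) and for Nr4a3 0.25 (SE 0.16, adjusted p = 0.480), so the larger rise in FIPs than in APCs was not shown to differ between them. Ppara gave 0.72 (SE 0.27, adjusted p = 0.267), Nr3c2 0.43 (SE 0.16, adjusted p = 0.274), Thrb 0.30 (SE 0.12, adjusted p = 0.281) and Esrrg 1.31 (SE 0.50, adjusted p = 0.274). Without replicate 1 of the APCs labelled transgenic, Esrrg passed at 1.70 (adjusted p = 0.0303), while 1.9% of all genes passed. Vdr, the receptor gene that passed in APCs, gave 0.48 (SE 0.24, adjusted p = 0.387).

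Coactivators and corepressors, through which the receptors act, were examined as a list of 25 genes. In FIPs against APCs 2 were higher and 10 lower in labelled transgenic mice, against 22.7 and 19% of all genes. In controls 2 were higher and 9 lower, against 19.6 and 27.9% of all genes. Nrip1, a corepressor of metabolic genes in fat, differed by −0.43 and −0.50 log2 units, the coactivator gene Ncoa1 by −0.37 and −0.28 and Tbl1xr1 by −0.24 and −0.27. Between genotypes in APCs, Tbl1xr1 rose by 0.17 (adjusted p = 0.0207) and the deacetylase gene Sirt1 by 0.34 (adjusted p = 0.0476), and Ppargc1b fell by 0.82 (adjusted p = 0.0466). The median of the list lay between −0.09 and 0.01 in these comparisons.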

How the data were processed

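The data are log2 CPM of polyadenylated RNA in 20 libraries, as deposited by the authors to 2 decimals. Per the submitters' processing notes, Trim Galore 0.4.1, HISAT2 2.0.1, featureCounts 1.4.6 and DESeq2 1.6.3 were used with GRCm38. Neither the strand setting nor the annotation release is given in those sources. Of the values above 0 and below 1.2 log2 CPM, 72 to 80.7% per library lay within 0.0051 log2 units of a whole number of reads at the best-fitting depth, short of nearly all genes, so no count model was applied.

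Genes above 0 in at least 5 libraries (17435) were fitted together in limma 3.58.1 (R 4.3.3), with 1 mean per group, a variance trend and 16 residual degrees of freedom. P-values were adjusted by Benjamini-Hochberg over all of them and called at 0.05. Exact permutation tests were two-sided over 5 against 5 libraries. Libraries were taken as independent, although pools of 1 genotype share mice, so p-values measure the spread between pools. The fit was tested on simulated data. Coordinates are those of GENCODE M21 (GRCm38), and upstream sequences are from RefSeq (GRCm38.p6).

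Receptor genes called between genotypes, or between cell types by at least 0.5 log2 units, are given library by library, the others as means, and up to 4 genes per list are named. Receptors and lists were chosen with earlier results of these data known. Alternatives were a pseudocount of 1, other filters, median centring, robust variance, only the groups compared, a replicate block and each library left out. Some genes of the lists are not reported here by name.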

Additional observations from a re-analysis of the deposited data

Results flagged for a closer look

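In 7 of 130 groups of 5 libraries of a receptor gene, 1 library stood apart from the other 4 by more than 0.71 of the whole range, Dixon's limit for 5 values. Chance alone sets about 1 in 20 groups apart in this way. Esrrg stood apart in both cell types, at 2.18 log2 CPM in replicate 1 of the APCs labelled transgenic (others 0.04 to 0.52) and at 0.56 in replicate 1 of the control FIPs (others 0 to 0.07). Nr4a3 was 6.83 in replicate 5 of the control APCs, below the other 4 at 7.25 to 7.41. Rxra was 7.34 in replicate 1 of the FIPs labelled transgenic, above the others at 7.25 to 7.27. The 3 further cases were single libraries above a group otherwise at 0. They were Rorb at 0.33 in replicate 3 of the APCs labelled transgenic, Nr5a2 at 0.39 in replicate 2 of the control FIPs and Nr5a1 at 0.03 in replicate 4 of the FIPs labelled transgenic.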

How the results depend on the processing

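Between FIPs and APCs the number of receptor genes passing stayed between 17 and 20 in labelled transgenic mice and between 21 and 24 in control mice under the alternatives that kept all libraries, and between 15 and 18 and between 19 and 24 when 1 library was left out. Between genotypes in FIPs the 2 calls went to 0 with no filter, with median centring and with only the groups compared, and lay between 0 and 2 with 1 library left out. In APCs the single call went to 0 with no filter, with only the groups compared and with the replicate block, lay between 0 and 9 with 1 library left out, and after median centring Rora passed as higher in place of Vdr. With only the APC groups compared, 0% of all genes passed, genes of the lists included. The interaction count lay between 0 and 1 with 1 library left out. The causes were not tested. Median centring moved the median of all genes in APCs between genotypes from −0.03 to 0.07 log2 units and the share of higher calls from 26.2 to 62.6%. In FIPs that share was 64.6 and 51.9%, and between the cell types it was 54.5 and 43.8% in labelled transgenic and 41.3 and 52.8% in control mice. No direction of a called receptor gene reversed. Same-numbered FIP and APC pools correlated at 0.059 to 0.333 in labelled transgenic mice (3 of 5 pairs over 0.1) and at 0.036 to 0.269 in control mice (2 of 5), and same-numbered pools of different genotype at −0.317 to 0.148. Since not every pair exceeded 0.1, and at most 3 of 5 libraries correlated best with their own number, the numbers were not taken to pair the libraries. With the number as a block, 17 and 22 receptor genes passed between cell types in labelled transgenic and control mice, 2 between genotypes in FIPs and 0 in APCs. With the number within a genotype as the replicate block, 20 and 24 passed between cell types in labelled transgenic and control mice, the added genes being Rara in both (adjusted p = 0.0243 and 0.0245), Rarg and Rxrg in labelled transgenic mice (0.0172 and 0.0335) and Nr2c2 and Nr2f6 in controls (0.0139 and 0.0196). Across 40 contrasts of related receptors, 25 values under alternatives lost their call and 1 gained it. At 1 CPM or less values are listed as 0, so differences of Esrrb, Esrrg, Nr5a1, Nr5a2, Pgr and Rorb are limited by depth.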
